A study of Mus musculus with 36 samples.

Results

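Transcripts of enzymes that break down aromatic and glucogenic amino acids were measured in the liver of 36 male mice. The arrays did not measure protein or enzyme activity. For their place in these pathways 9 genes were chosen. Tat, Hpd, Hgd and Fah stand for phenylalanine and tyrosine, and Tdo2 for tryptophan. Hal stands for histidine, Prodh for proline, Sds for serine and threonine, and Gls2 for glutamine. A gene's values were those of the array probes that carry its symbol. The platform annotation named a probe for 6 of the 9 genes, of 16593 genes it named in all, with 1 probe for each of Tat, Hpd, Fah, Tdo2, Hal and Prodh. Of these 6, Tat was too dim to be tested, so 5 were tested. The platform annotation used here named no probe for Sds and Gls2. Their probes, 1 for Sds and 2 for Gls2, took their names from the study's list of differentially expressed genes in its tissues. The list was shown in part and appeared to be ordered by its results, so a probe it names may be more likely to differ here. The group differences of Sds and Gls2 are therefore described with no test and stay outside every count of genes called. Only their correlations among mice of the same group carry a p. Hgd was not analysed here.

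The liver is the main site where amino acids beyond the needs of protein synthesis are broken down. Phenylalanine and tyrosine end as fumarate and acetoacetate, tryptophan enters the kynurenine pathway, and histidine, proline and glutamine converge on glutamate. Serine and threonine are deaminated to keto acids, and glucogenic carbon from these routes can be turned into glucose in the fasted state. Several of these enzymes are known in rodents to follow protein intake and the hormones glucagon and glucocorticoid.

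The mice were C57BL/6J males killed at 9 weeks of age after a short fast. A group's name gives the dam's diet and then the pup's diet after weaning, where HF is a high-fat and LF a low-fat diet. HF_HF held 10 mice from 4 cages, LF_HF 8 mice from 4 cages, HF_LF 9 mice from 5 cages and LF_LF 9 mice from 4 cages. Dams ate their diet from before mating until the pups were weaned, and no genetic change or drug was used in any group. Because HF was also the diet with less carbohydrate, fat and carbohydrate cannot be told apart, while the study describes the protein of both diets as the same in kind and amount. Each mouse's label names a cage, and because 5 of the 12 cages held pups of both diets the cage was read as that of birth. All mice of a cage had dams of 1 diet, 6 cages for each dam diet.

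Each liver was hybridized to 1 Illumina MouseRef-8 v2.0 array, and a value is the quantile-normalized intensity of a probe on a linear scale. The arrays held 25697 probes, of which 12289 were bright enough to be tested. Each array correlated with the rest at a median r of 0.979 to 0.991, and the number of arrays limits the precision. The labelled tissue was checked against 10 hepatocyte genes, of which 8 had a kept probe. Median intensities were 24924 for Ttr and 26197 for Apoa1, secreted proteins of the hepatocyte, whereas the probe for Alb read 192 and that for Fgb 85.25. The summed intensity of the 8 hepatocyte probes lay between 95738 and 107240 in HF_HF, 100201 and 107690 in LF_HF, 99815 and 109796 in HF_LF, and 101872 and 109591 in LF_LF. Bulk RNA cannot tell fewer cells of a type from less RNA per cell.

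Prodh encodes proline dehydrogenase, which catalyses the first step of proline breakdown in mitochondria. Of the 5 tested genes it was the 1 whose RNA level passed the test. Prodh was higher on the HF pup diet in the offspring of either dam. Its gene lies on chromosome 16 (18071726 to 18089283 in RefSeq GRCm38.p6), and the probe is ILMN_2908406. Bases before the start of Prodh are shown because this gene carries the main difference, and those of Hpd and Fah because these tyrosine enzymes were correlated among mice of the same group, though not past the threshold within cages. All 3 are RefSeq sequence of GRCm38.p6 on the minus strand, for Prodh chr16:18089284-18089440, for Hpd chr5:123182724-123182973 and for Fah chr7:84605943-84606192, with matches to the GC box letters GGGCGG in capitals.
Prodh: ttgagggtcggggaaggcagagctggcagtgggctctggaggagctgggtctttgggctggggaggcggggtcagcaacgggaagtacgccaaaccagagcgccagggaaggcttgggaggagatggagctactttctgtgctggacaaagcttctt
Hpd: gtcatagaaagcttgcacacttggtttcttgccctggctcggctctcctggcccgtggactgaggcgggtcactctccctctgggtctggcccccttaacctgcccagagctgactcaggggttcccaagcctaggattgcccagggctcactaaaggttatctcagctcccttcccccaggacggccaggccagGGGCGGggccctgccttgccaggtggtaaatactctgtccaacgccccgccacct
Fah: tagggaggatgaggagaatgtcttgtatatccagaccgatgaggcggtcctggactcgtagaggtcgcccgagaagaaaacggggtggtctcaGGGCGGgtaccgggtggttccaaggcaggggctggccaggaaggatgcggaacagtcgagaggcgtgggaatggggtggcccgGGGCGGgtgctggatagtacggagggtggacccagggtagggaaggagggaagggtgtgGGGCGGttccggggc
The 250 bases before the start that RefSeq's promoter table gives were searched, of which the 93 of Prodh that lie inside the annotated gene are not printed. None of the 3 windows held AGGTCA (a nuclear receptor half-site, in 14% of 32851 windows of this length), TGTTCT (a glucocorticoid receptor half-site, 16.1%), TGACG (a cAMP response element half-site, 17.8%), CCAAT (33.8%) or TATAAA (12.4%) on either strand. GGGCGG, searched after the other motifs gave no match, had 0 matches in the Prodh window, 1 in that of Hpd and 3 in that of Fah, against 32.7% of all windows with a match. A match is only a run of letters, and the array data do not bear on factor binding.

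The post-weaning comparison asked how the transcripts of these enzymes differed with the diet eaten by the pup itself. In offspring of HF dams, Prodh intensities ran from 737 to 1236 with a median of 1105 in HF_HF livers, and from 474 to 967 with a median of 833 in HF_LF livers. Of the 10 HF_HF mice, 8 lay above every HF_LF mouse, and the group means were 1063 ± 154 in HF_HF and 768 ± 158 in HF_LF (SD, n = 10 and 9). The log2 difference was 0.49 ± 0.12 (SE), a ratio of 1.40 with a 95% interval of 1.19 to 1.65, at an adjusted p of 0.00852 (limma). In offspring of LF dams, Prodh ran from 746 to 1145.5 with a median of 913 in LF_HF livers, and from 581.5 to 888 with a median of 686 in LF_LF livers. Here 6 of the 8 LF_HF mice lay above every LF_LF mouse. The means were 934 ± 137 in LF_HF and 724 ± 115 in LF_LF (SD, n = 8 and 9), a log2 difference of 0.37 ± 0.10 at an adjusted p of 0.0441 (limma).

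Of the 5 tested genes, Prodh alone was called in each post-weaning comparison, and it was higher on HF in both. Among all 12289 probes, 5.15% rose and 6.11% fell in offspring of HF dams, and 1.77% rose and 1.29% fell in offspring of LF dams. The median log2 difference over the 5 genes was 0.15 in offspring of HF dams and 0.12 in offspring of LF dams, beside medians over all probes of -0.0061 and -0.0031. In each comparison 4 of the 5 lay above 0. With no adjustment, 3 genes (Prodh, Fah and Hal) had p under 0.05 (limma) in offspring of HF dams. In offspring of LF dams 2 did (Prodh and Fah). Of all 12289 probes, 2991 in offspring of HF dams and 2039 in offspring of LF dams had such a p. With cage as a fixed block the Prodh call held in offspring of HF dams (0.54, adjusted p = 0.0219) and was lost in offspring of LF dams (0.26, adjusted p = 0.484). In offspring of LF dams it was lost as well with 1 mean per cage and group (adjusted p = 0.216), and in 17 of the 23 settings that left out 1 mouse or cage, all but LF_HF replicates 3 and 8, LF_LF replicates 2, 8 and 9 and cage 11 (adjusted p from 0.0155 to 0.219). In offspring of HF dams it was lost when cage 20 was left out (0.41, adjusted p = 0.0796). Among offspring of LF dams, cage 14 held only LF_HF replicate 1 and cage 6 only LF_LF replicate 7. Leaving out such a mouse or its cage was the same fit, and both enter every count of 23 settings.

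**Figure D1:**
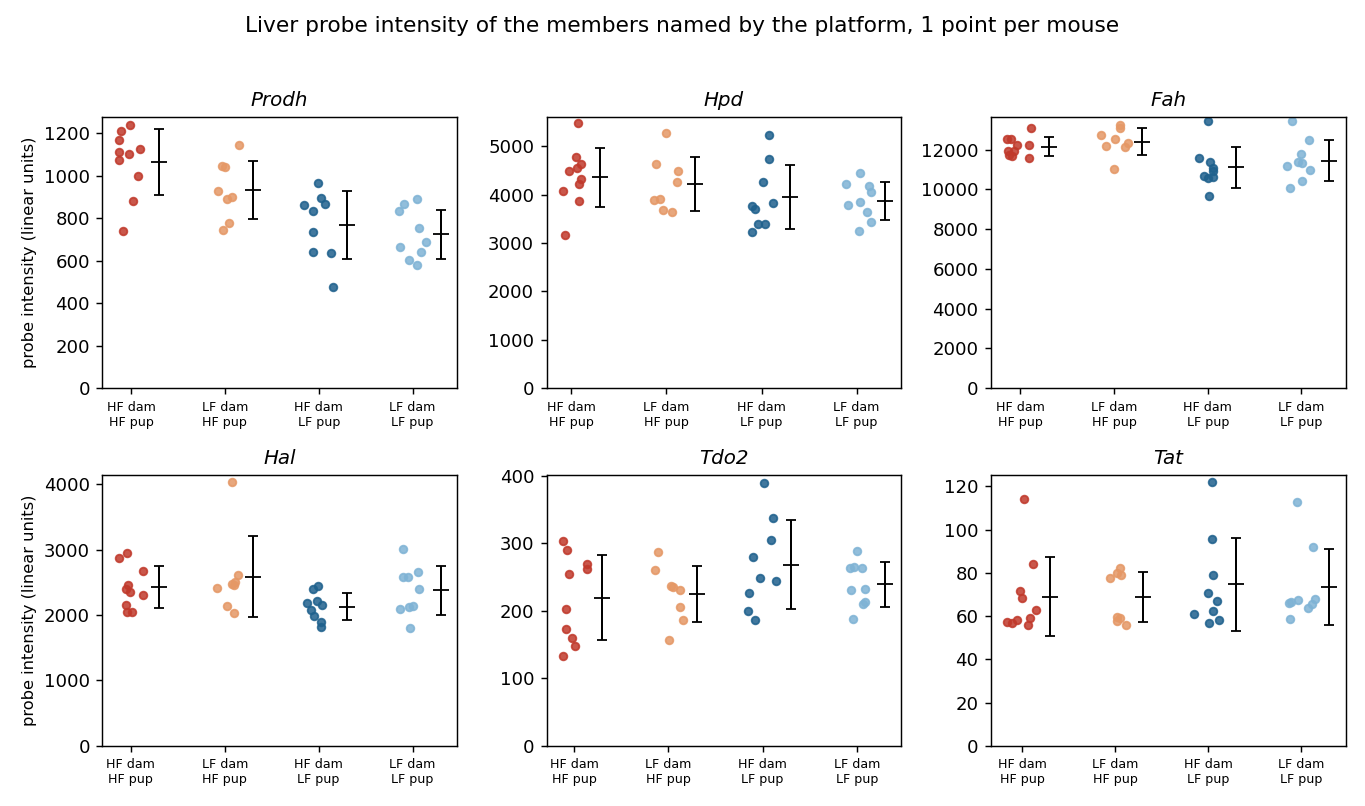
Probe intensity (linear units, axis from 0) of the 6 genes named by the platform, 1 point per mouse, for HF_HF, LF_HF, HF_LF and LF_LF from left to right, with the mean and SD as a black bar beside the points. Prodh averaged 1063 and 934 in the 2 groups on the HF pup diet and 768 and 724 in the 2 groups on the LF pup diet, while the groups of the other 5 genes overlap widely.

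The 5 cages that held both pup diets allowed the diets to be compared among mice raised together. Prodh was higher on HF in 4 of the 5. In the cages of HF dams, mean intensities were 1167 on HF and 850.4 on LF in cage 10, 1136 on HF and 636 on LF in cage 20, and 913 on HF and 688 on LF in cage 23. In the cages of LF dams they were 892 on HF and 616 on LF in cage 4, and 853 on HF and 877 on LF in cage 11. Each mean rests on 1 to 3 mice. The log2 difference within a cage thus ranged from -0.046 in cage 11 to 0.84 in cage 20.

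**Figure D2:**
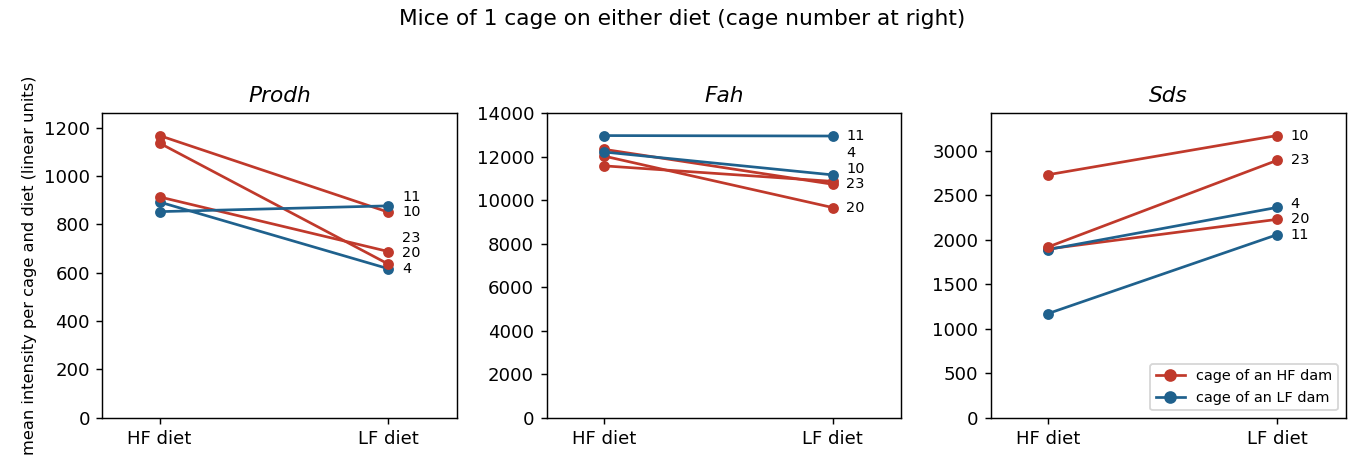
Mean intensity (linear units, axis from 0) of Prodh, Fah and Sds in mice on the HF diet (left) and the LF diet (right) of the same cage, 1 line per cage, with its number at right and colored by the diet of the dam. Prodh was higher on HF in 4 of 5 cages, Fah in 5 of 5 and Sds in 0 of 5.

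The transcripts of the tyrosine enzymes differed less. Fah, fumarylacetoacetate hydrolase, splits the last intermediate of tyrosine breakdown into fumarate and acetoacetate, and its loss causes tyrosinemia in mouse and human. Its intensity ran from 11589.5 to 13073 with a median of 12086 in HF_HF livers and from 9671 to 13445 with a median of 10917 in HF_LF livers. All 10 HF_HF mice lay above the HF_LF median, but none lay above every HF_LF mouse. The log2 difference was 0.13 ± 0.05, at an adjusted p of 0.101 (limma). With cage as a fixed block it was 0.21, at an adjusted p of 0.0499, and it also passed without HF_LF replicate 9 (adjusted p = 0.018) and without cage 12 (adjusted p = 0.0155). It did not pass in the other 8 settings (adjusted p up to 0.343, with 1 mean per cage and group) or in the other 23 that left out 1 mouse or cage (up to 0.387). Among offspring of LF dams, Fah ran from 11021 to 13251 with a median of 12438 in LF_HF livers and from 10071 to 13445 with a median of 11329 in LF_LF livers, a log2 difference of 0.12 ± 0.06 (adjusted p = 0.293, limma). Fah was higher on HF in all 5 cages with both diets, by 0.0029 to 0.32 on the log2 scale.

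Hpd, 4-hydroxyphenylpyruvate dioxygenase, makes homogentisate from the keto acid of tyrosine. Hpd ran from 3174 to 5482 with a median of 4407 in HF_HF livers and from 3235 to 5222 with a median of 3771 in HF_LF livers, and from 3645 to 5275 with a median of 4083 in LF_HF livers and from 3240.3 to 4445 with a median of 3852 in LF_LF livers. The groups overlapped in both comparisons. The log2 differences were 0.15 ± 0.09 in offspring of HF dams (adjusted p = 0.37) and 0.12 ± 0.08 in offspring of LF dams (adjusted p = 0.476, limma), with intervals from -0.049 to 0.34 and from -0.041 to 0.28. Hpd was higher on HF in 3 of the 5 cages and lower in 2.

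Tat, tyrosine aminotransferase, which opens the pathway, had a median intensity of 66.5 over the 36 livers, below the 71.5 that is the median of all values on the arrays. Tat ran from 55.8 to 114 in HF_HF, 55.9 to 82.2 in LF_HF, 56.9 to 122 in HF_LF and 58.7 to 113 in LF_LF. Readings this close to the bulk of dim probes carry little information on its transcript, and no difference is given.

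Tdo2, tryptophan 2,3-dioxygenase, is the hepatic enzyme that opens the kynurenine pathway, and its direction was opposite to that of the other 4 tested genes. Tdo2 ran from 134 to 303 with a median of 228 in HF_HF livers and from 186.5 to 389 with a median of 248 in HF_LF livers, and 4 of the 10 HF_HF mice lay below every HF_LF mouse. The log2 difference of -0.31 ± 0.16 did not pass (adjusted p = 0.247, limma), and with cage as a fixed block it was -0.0091. For LF dams, Tdo2 ran from 156 to 287 with a median of 232 in LF_HF livers and from 187 to 289 with a median of 232 in LF_LF livers, a log2 difference of -0.10 ± 0.11 (adjusted p = 0.711). Within cages it was higher on HF in 2 and lower in 3.

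Hal, histidine ammonia-lyase, removes ammonia from histidine as the first step of its breakdown. Hal ran from 2044 to 2952 with a median of 2370.1 in HF_HF livers and from 1819 to 2446 with a median of 2149 in HF_LF livers, and 4 of the 10 HF_HF mice lay above every HF_LF mouse. The log2 difference was 0.18 ± 0.08 (adjusted p = 0.127, limma). Hal in offspring of LF dams ran from 2036 to 4033 with a median of 2466 in LF_HF livers and from 1806 to 3009 with a median of 2394 in LF_LF livers, a log2 difference of 0.11 ± 0.11 (adjusted p = 0.716). The reading of 4033 came from 1 mouse of cage 9, and the other LF_HF mice read at most 2618. Without cage 9 the difference was -0.015. Of the 5 cages with both diets, Hal was higher on HF in 3 and lower in 2.

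Sds, serine dehydratase, and Gls2, the liver-type glutaminase, are the members named only by the study's list, and their log2 differences carry no p. Because that list holds genes the study called as differing, the group separations of Sds and Gls2 are descriptions only. Sds ran from 1055 to 2812 with a median of 1605 in HF_HF livers and from 1859 to 3513 with a median of 2829 in HF_LF livers. All 10 HF_HF mice lay below the HF_LF median and 6 lay below every HF_LF mouse. The log2 difference was -0.66 ± 0.16 (SE), a ratio of 0.635. Sds in offspring of LF dams ran from 1007 to 3388 with a median of 2002 in LF_HF livers and from 1499.6 to 3240.3 with a median of 2384 in LF_LF livers, a log2 difference of -0.33 ± 0.17. Sds was lower on HF in all 5 cages with both diets, by log2 differences between -0.77 and -0.21.

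The pair of Gls2 probes gave like readings across mice (r = 0.804 for deviations from the group mean, as a description over 36 mice of 2 probes for 1 gene). On ILMN_2762640, the first Gls2 probe, intensities ran from 1912 to 3306 with a median of 2894 in HF_HF livers and from 2818 to 3689 with a median of 3368 in HF_LF livers. On ILMN_2840975, the second, they ran from 1899.8 to 2935 with a median of 2614 in HF_HF livers and from 2784 to 3348 with a median of 2979 in HF_LF livers. On either probe all 10 HF_HF mice lay below the HF_LF median. The log2 differences in offspring of HF dams were -0.26 ± 0.09 and -0.28 ± 0.07 for the first and the second probe, and those in offspring of LF dams were -0.091 ± 0.083 and -0.030 ± 0.090. With LF dams the first probe ran from 2717 to 4503 in LF_HF livers and from 3024 to 3852 in LF_LF livers, and the second from 2387 to 4234 in LF_HF livers and from 2667 to 3443 in LF_LF livers. Either probe was lower on HF in 4 of the 5 cages with both diets and higher in 1.

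**Figure D3:**
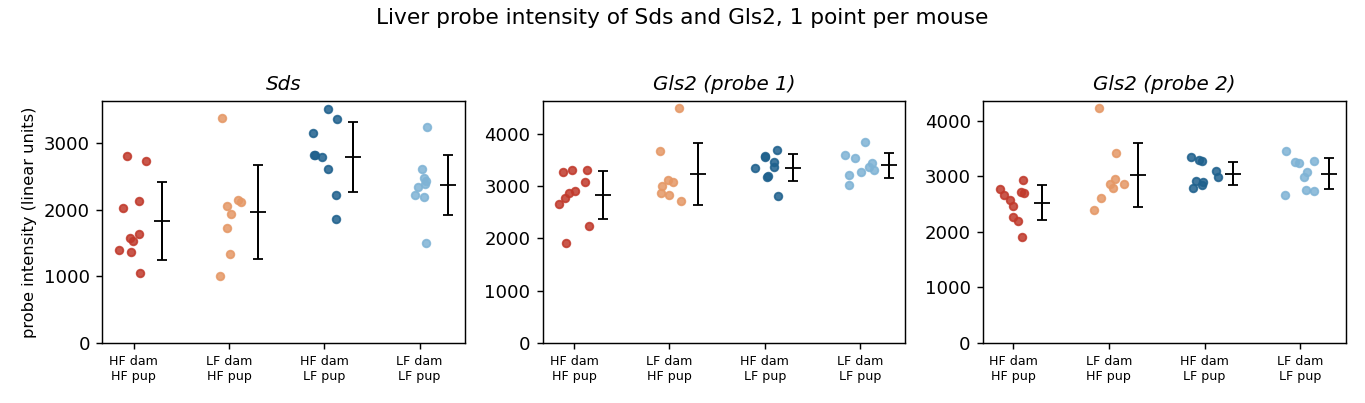
Probe intensity (linear units, axis from 0) of Sds and of the 2 Gls2 probes, 1 point per mouse, for HF_HF, LF_HF, HF_LF and LF_LF from left to right, with the mean and SD as a black bar. Sds averaged 1827 in HF_HF, 1967 in LF_HF, 2801 in HF_LF and 2380.2 in LF_LF.

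The maternal comparisons asked whether the dam's diet left a difference between adults fed alike. None of the 5 genes passed the test for pups on HF or for pups on LF (limma). In pups on HF 0.269% of the 12289 probes passed, and in pups on LF 0%, while 1354 and 803 probes had an unadjusted p under 0.05. None of the 5 tested genes had one. Prodh had the largest log2 difference of the 5 in pups on HF, 0.19 ± 0.10 between HF_HF and LF_HF (95% interval from -0.018 to 0.39, adjusted p = 0.495). Hal had the largest in pups on LF, -0.15 ± 0.08 between HF_LF and LF_LF (95% interval from -0.32 to 0.027, adjusted p = 0.791). Of the members without a test, the first Gls2 probe differed by -0.19 ± 0.11 in pups on HF (95% interval from -0.41 to 0.037) and by -0.020 ± 0.057 in pups on LF. The second Gls2 probe differed by -0.25 ± 0.10 in pups on HF (95% interval from -0.45 to -0.049) and by 0.0022 ± 0.060 in pups on LF. Sds differed by -0.091 ± 0.199 in pups on HF and by 0.24 ± 0.12 in pups on LF. The median over the 5 genes was -0.029 in pups on HF and 0.018 in pups on LF, beside medians over all probes of -0.0057 and -0.0024.

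The interaction asked whether the effect of the pup's diet differed between offspring of HF and of LF dams. Of 12289 probes, 0% passed (limma), 776 had an unadjusted p under 0.05, and 0 of the 5 genes had either. For Prodh the effect in offspring of HF dams exceeded that in offspring of LF dams by 0.12 ± 0.16 on the log2 scale, with a 95% interval from -0.21 to 0.44 and an adjusted p of 0.957. For Sds the corresponding value was -0.33 ± 0.25, without a test. For the first Gls2 probe it was -0.17 ± 0.13 (95% interval from -0.42 to 0.085). For the second Gls2 probe it was -0.25 ± 0.12 (95% interval from -0.49 to -0.018). Neither Gls2 probe was tested.

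**Figure D4:**
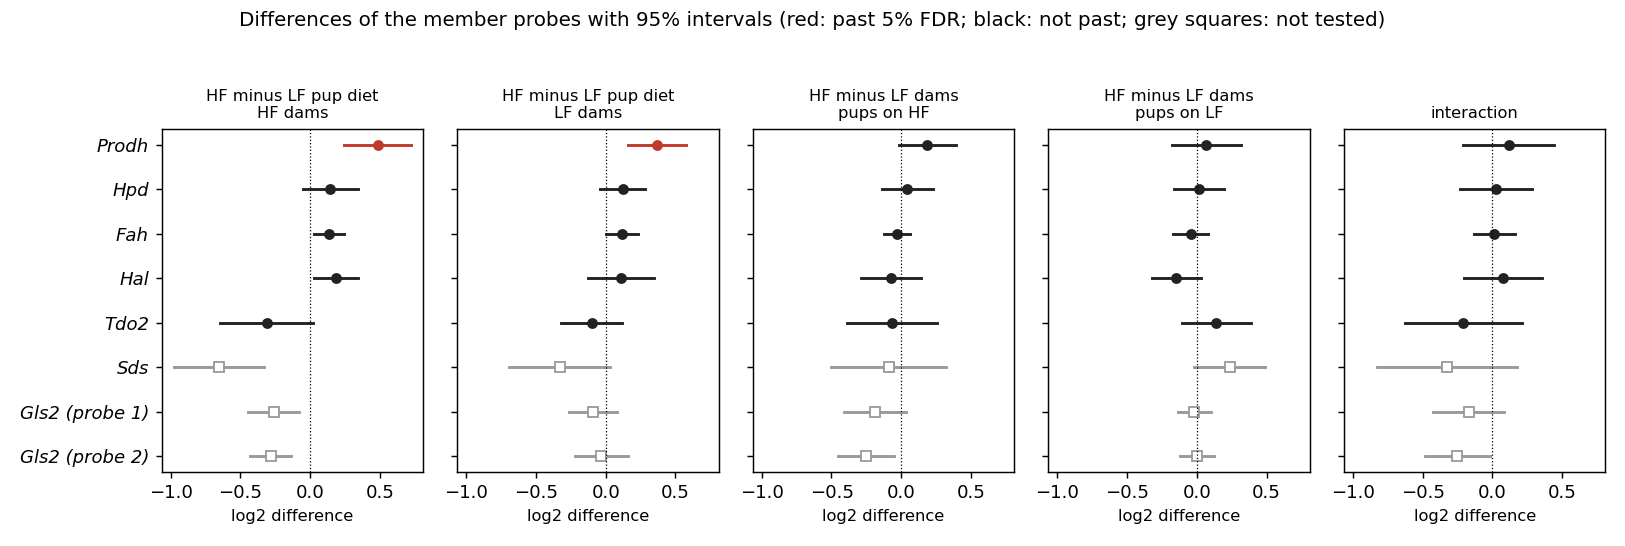
Log2 differences of the 8 member probes above the filter with 95% intervals, in 1 panel for each pup diet comparison, each dam diet comparison and the interaction. Red marks an adjusted p of at most 5%, black a tested probe above it and grey squares the untested probes of Sds and Gls2, and Prodh in the first and second panels is the only red point.

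The other genes of these pathways were described from lists of enzymes that break down or convert amino acids, with the 9 members left out. In offspring of HF dams, 4 of 28 tested genes rose and 1 fell, where 5.15% of all 12289 probes rose and 6.11% fell. The 28 genes had a median log2 difference of 0.065 beside -0.0061 over all probes. In the tryptophan list 3 of 8 rose: Kmo, kynurenine 3-monooxygenase, by 0.63 ± 0.14 (adjusted p = 0.00649), Aadat, an aminotransferase of kynurenine and aminoadipate, by 0.45 ± 0.11 (adjusted p = 0.0125), and Afmid, kynurenine formamidase, by 0.37 ± 0.11 (adjusted p = 0.0334, all limma). These enzymes act after Tdo2, whose own difference was -0.31 ± 0.16. In the phenylalanine and tyrosine list 1 of 3 rose, Gstz1, maleylacetoacetate isomerase, which acts just before Fah, by 0.18 ± 0.06 (adjusted p = 0.0432). Glud1, glutamate dehydrogenase, fell by 0.32 ± 0.10 (adjusted p = 0.0316). With 1 mean per cage and group, Kmo alone of these 5 passed (adjusted p = 0.0227).

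Of the 28 genes, 1 in offspring of LF dams rose and 0 fell, where 1.77% of all probes rose and 1.29% fell. The median was 0.11 beside -0.0031 over all probes, and 2039 probes had an unadjusted p under 0.05. The gene that rose was Gldc, the decarboxylase of the glycine cleavage system, at 0.41 ± 0.09 (adjusted p = 0.011, limma). The adjusted p was 0.208 with 1 mean per cage and group and 0.204 with cage as a fixed block. Kmo differed there by 0.23 ± 0.12 (adjusted p = 0.338). Prodh's partner Aldh4a1, which carries proline carbon on to glutamate, differed by 0.088 ± 0.060 in offspring of HF dams and 0.17 ± 0.07 in offspring of LF dams, and neither passed (adjusted p = 0.4 and 0.185). None of the 28 genes passed in either maternal comparison or in the interaction.

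Among the transporters that bring amino acids into the hepatocyte or its mitochondria, 2 of 8 rose in offspring of HF dams and 1 of 8 in offspring of LF dams. Of all probes, 5.15% and 1.77% rose in the same 2 comparisons. Slc1a2, a glutamate transporter of pericentral hepatocytes, rose in both, by 0.42 ± 0.08 (adjusted p = 0.00131, and 0.0534 on cage means) in offspring of HF dams and by 0.40 ± 0.10 (adjusted p = 0.0254, 0.229 with cage as a fixed block and 0.183 on cage means) in offspring of LF dams. Slc7a2, which carries arginine and lysine, rose by 0.24 ± 0.07 in offspring of HF dams (adjusted p = 0.0266). That call was lost with cage as a fixed block (adjusted p = 0.059), with 1 mean per cage and group (0.114), with all 4 groups in 1 fit (0.2) and with no filter (0.0567).

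Gluconeogenesis, the route that glucogenic amino acids feed, had 2 of 6 genes that fell on HF in offspring of HF dams and 1 of 6 in offspring of LF dams. Over all probes, 5.15% rose and 6.11% fell in offspring of HF dams, and 1.77% rose and 1.29% fell in offspring of LF dams. G6pc, glucose-6-phosphatase, fell by 0.69 ± 0.21 in offspring of HF dams (adjusted p = 0.04) and by 1.07 ± 0.19 in offspring of LF dams (adjusted p = 0.00283, limma). For HF dams the G6pc call was lost with cage as a fixed block (adjusted p = 0.598) or a random block (0.0513) and on cage means (0.135). It was lost as well with no filter (0.0604) and with robust eBayes (0.0721). Ppargc1a, a coactivator of the gluconeogenic program, fell by 0.43 ± 0.10 in offspring of HF dams (adjusted p = 0.00937, 0.0704 with cage as a fixed block and 0.109 on cage means). The list medians were -0.22 in offspring of HF dams and -0.14 in offspring of LF dams. Of 11 genes for glucagon, glucocorticoid and cAMP signalling, Cebpb alone rose, by 0.38 ± 0.09 in offspring of HF dams (adjusted p = 0.0104, and 0.111 on cage means), and none passed in offspring of LF dams.

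Markers of other cells moved with the pup diet in part. The shares over all probes were 5.15% that rose and 6.11% that fell in offspring of HF dams, and 1.77% and 1.29% in offspring of LF dams. In offspring of HF dams the summed intensity of 3 pancreatic acinar probes ran from 509 to 3606 in HF_HF and from 446 to 876 in HF_LF, and 1 of the 3, Cela1, rose, by 0.81 ± 0.23 (adjusted p = 0.0264). The acinar genes Cpa1, Prss2, Ctrb1 and Cel had a probe below the filter. Of 9 endothelial markers 1 fell and 0 lay above 0, with a median log2 difference of -0.15, and the sum ran from 4271 to 6403 in HF_HF and from 5479 to 7014 in HF_LF. Of 7 stellate cell markers none passed and 1 lay above 0, with a median of -0.087, and the sum ran from 5779 to 7774 in HF_HF and from 6825 to 7901 in HF_LF. Of 5 blood cell markers 1 rose and 1 fell. Of 7 macrophage markers none passed and 5 lay above 0, and neither of 2 cholangiocyte markers passed. In offspring of LF dams none of the macrophage, endothelial, stellate, cholangiocyte, blood and acinar markers passed. The acinar sum there ran from 692 to 2232 with a median of 900 in LF_HF. In LF_LF it ran from 610 to 1013 with a median of 846.5. Among zonal hepatocyte genes, 3 of 10 pericentral markers rose and 1 of 9 periportal markers fell in offspring of HF dams, while 2 of 10 and 1 of 9 rose in offspring of LF dams. The part of these markers in the member differences was not tested.

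Among mice of the same group, members varied together to a modest extent. Over the 27 pairs of probes from different genes, Pearson's r of deviations from the group mean ran from -0.168 to 0.62 with a median of 0.209, and 19 were above 0. After Benjamini-Hochberg adjustment 2 of the 27 pairs passed in a two-sided permutation test within groups, with 8 at an unadjusted p under 0.05. Sds and the second Gls2 probe had r = 0.62 and rho = 0.494 (n = 36, permutation p = 0.00079 and 0.00504, adjusted p = 0.0213 and 0.0454). Hpd and Fah had r = 0.509 and rho = 0.49 (n = 36, permutation p = 0.0017 and 0.00364, adjusted p = 0.0229 and 0.0454). Neither pair passed when deviations were taken from the mean of cage and group (r = 0.619, permutation adjusted p = 0.0641 for Sds and Gls2, and r = 0.327, permutation adjusted p = 0.283 for Hpd and Fah). The 2 mice farthest from the median of the first gene of a pair, Sds or Hpd, were also left out. The values were then r = 0.451 (permutation adjusted p = 0.0899) for Sds and Gls2 and r = 0.365 (permutation adjusted p = 0.146) for Hpd and Fah, and neither pair passed. Mice far out only in the second gene, Gls2 or Fah, stayed in. The relation of Hpd and Fah was also uneven over the groups, with r = 0.442 in HF_HF, -0.531 in LF_HF, 0.9 in HF_LF and 0.806 in LF_LF.

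Glucose in the fasted mice averaged 188 ± 43 mg/dl in HF_HF, 224 ± 33 in LF_HF, 193 ± 25 in HF_LF and 203 ± 36 in LF_LF (SD, n = 10, 8, 9 and 9). None of 16 relations of the member probes with glucose or with the second weight in the labels passed the permutation test after adjustment, and 3 had an unadjusted p under 0.05. The highest was that of Hpd with glucose (r = 0.414, rho = 0.365, permutation p = 0.0153 and 0.0326, adjusted p = 0.151 and 0.261), which was 0.173 within cage and group. Fah with glucose gave r = 0.374 and rho = 0.3 (permutation p = 0.0189 and 0.0811, adjusted p = 0.151 and 0.324) and Tdo2 with weight r = -0.362 and rho = -0.407 (permutation p = 0.0441 and 0.0206, adjusted p = 0.235 and 0.261).

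**Figure D5:**
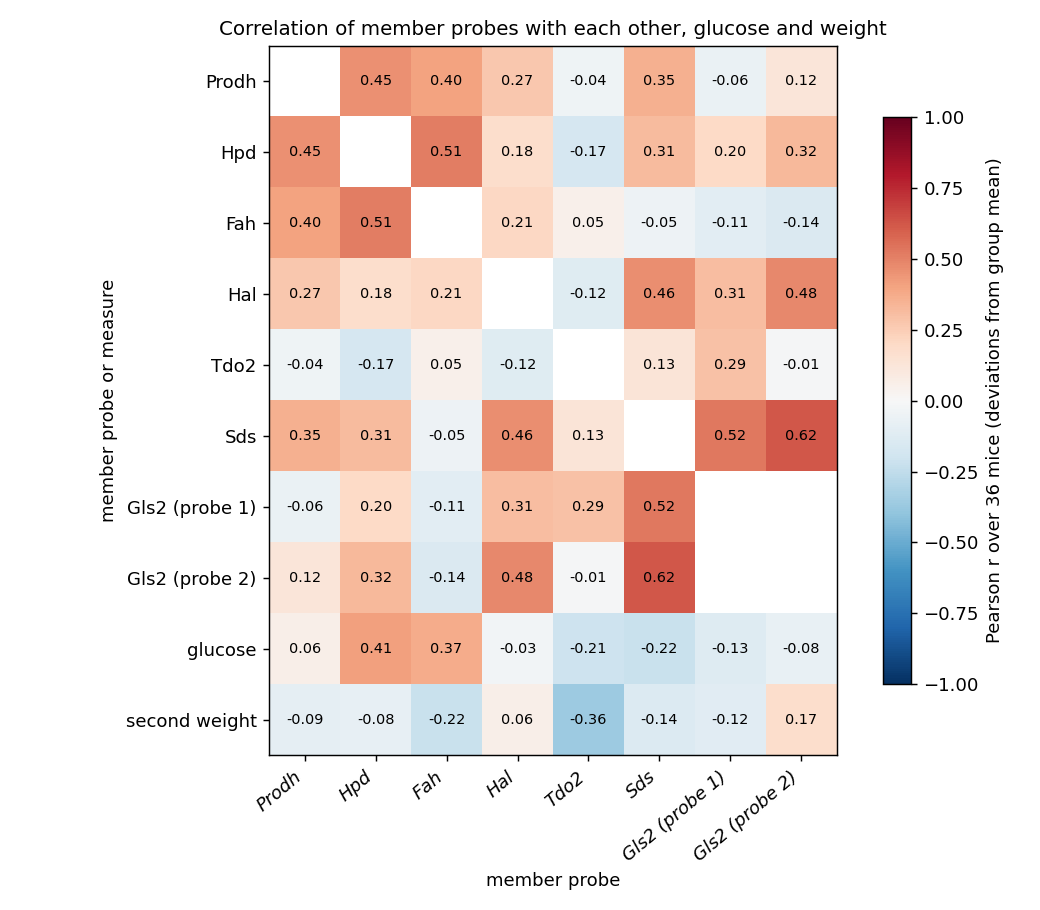
Pearson's r over 36 mice, for deviations of log2 intensity from the group mean, between the 8 member probes above the filter and with fasting glucose and the second weight, with red above 0 and blue below. The pairs of Sds with the second Gls2 probe (0.62) and of Hpd with Fah (0.51) are the 2 that passed.

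For each member the gene with the most similar variation among mice of the same group was sought among all kept probes of other genes, as a description over 36 mice that share arrays and cages. Prodh was most like Gpt2, an alanine aminotransferase (r = 0.820). Hpd was most like Afmid (r = 0.760), Fah like Echs1, an enoyl-CoA hydratase (r = 0.714), and Tdo2 like Selenop, a secreted selenoprotein (r = 0.831). Sds was most like Got1, the cytosolic aspartate aminotransferase (r = 0.737), and Hal like Accs (r = 0.634). The first Gls2 probe was most like Slc7a2 (r = 0.623) and the second like Kyat1, a kynurenine aminotransferase (r = 0.675). Each r was picked as the highest over all these probes, so it is high in part by selection. No such r was tested.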

How the data were processed

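Liver RNA of 36 mice was measured with 1 array per mouse. The deposited table holds intensity per probe, quantile-normalized by the authors on a linear scale and not background-subtracted, with a median of 71.5, so differences of dim probes are understated. The submitters' notes name BeadStudio, and its version is not given in the sources used here. Groups come from the labels' dam and pup diets.

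Log2 of the deposited intensity was taken with no further normalization. Probes entered the tests if their median intensity reached the median of all values, which kept 12289 of 25697 probes and stands in for the study's rule on expressed genes. Pairs of groups were compared with limma 3.58.1 in R 4.3.3 (lmFit and eBayes with a variance trend), and the interaction with all 4 groups in 1 fit. The Benjamini-Hochberg adjustment covered all kept probes, with a threshold of 0.05. The brightest kept probe stood for a listed gene. Correlations used 100000 permutations of mice within groups. The fit was tested only on simulated data in which mice and probes varied independently, so likeness among mice of a cage was not covered.

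Sds and Gls2 probes were named from a partly shown list of genes that the study called differentially expressed. Of 2241 of its probes with a platform symbol, 97.05% had the same or an older symbol. Members named are all of those listed, other genes up to 4 per list past the threshold, and any further gene was chosen after its values were seen. The members and lists were chosen with earlier results of these data known. Alternatives covered the filter, the variance model, the samples fitted, background subtraction, the cage, and each mouse or cage left out. They were run for the other pathway genes after their values were seen. The labels tie the second weight to weaning, yet it differs from the weight at 3 weeks, so its age is not known.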

Additional observations from a re-analysis of the deposited data

Results flagged for a closer look

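Of 32 sets of values (8 probes in 4 groups), 2 held a mouse that stood apart from the rest of its group by Dixon's test, where chance alone flags about 1 in 20. Hal read 4033.1 in LF_HF replicate 5, a mouse of cage 9, and the next highest LF_HF mouse read 2617.6. The same mouse had the highest LF_HF reading of Sds (3387.9), of Hpd (5275.2) and of the first and second Gls2 probes (4502.8 and 4233.7), and the lowest of Tdo2 (156.1). Its macrophage marker sum of 4802 was also the highest of LF_HF, and the part of these markers was not tested. Sds read 1499.6 in LF_LF replicate 9, a mouse of cage 11, and the next lowest LF_LF mouse read 2200.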

How the results depend on the processing

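The Prodh call in offspring of HF dams held in every setting run except without cage 20. In offspring of LF dams it held with a stricter filter, no variance trend, robust eBayes, cage as a random block and background subtraction, while 0 members were called with no filter, with all 4 groups in 1 fit, with 1 mean per cage and group and with cage as a fixed block. With 1 mouse or cage left out, 0 to 1 members were called there and Prodh passed in 6 of 23 settings. In offspring of HF dams 0 to 2 members were called with 1 mouse or cage left out. The fixed cage block gave 2 there, Prodh and Fah. The maternal and interaction counts stayed at 0 in every setting.

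Reversals touched only differences that never passed. With 1 mean per cage and group the maternal difference on HF was 0.033 for Hal and -0.031 for Hpd, and for Hpd it was -0.020 on LF and -0.011 in the interaction. With cage as a fixed block, Hal was -0.0064 and Hpd -0.011 in offspring of LF dams, and the Tdo2 interaction was 0.040. With 1 mouse or cage left out, Hal in offspring of LF dams ranged from -0.015 to 0.21. On LF the maternal differences ranged from -0.040 to 0.15 for Prodh, -0.082 to 0.058 for Hpd and -0.094 to 0.0078 for Fah. On HF they ranged from -0.14 to 0.050 for Hal, -0.20 to 0.040 for Tdo2 and -0.0075 to 0.10 for Hpd. The interaction ranged from -0.026 to 0.20 for Hal, -0.0080 to 0.20 for Prodh, -0.065 to 0.13 for Hpd and -0.015 to 0.065 for Fah. The cause was not tested.

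Of the pairs of members, 0 passed with deviations from cage and group and 0 without the 2 mice farthest from the median of the pair's first gene, against 2 otherwise. With glucose and weight 0 passed within cage and group. Without the 2 mice farthest from the median of the measure, glucose or weight, 1 passed (Fah with glucose, r = 0.503). The other breakdown genes called in offspring of HF dams numbered 0 to 6 with 1 mouse or cage left out and 1 to 6 in the other settings. Leaving out 1 mouse or cage ended the call there in 17 of 25 settings for Gstz1 and for G6pc, 12 for Afmid and for Glud1, 4 for Slc7a2, 2 for Aadat and for Cebpb, and 1 for Kmo and for Ppargc1a, and in offspring of LF dams in 6 of 23 for Slc1a2 and 2 for Gldc. No paired analysis was possible because the replicate numbers only follow the order of the records. Mice were matched by cage instead, through the fixed cage block. Probes near 71.5 units carry little signal over background, which limits Tat and, in part, Tdo2.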
